A study of Homo sapiens with 20 samples.

Results

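The regions described here are p53 ChIP-seq regions of wild-type HCT116 cells that carried none of the 3 histone marks profiled beside p53. p53 peaks of the 2 wild-type (WT) libraries were merged where they shared at least 1 bp on chromosomes 1 to 22, and the 25236 regions called in both libraries were kept. A region was unmarked if it overlapped no H3K4me1, H3K4me3 or H3K27ac peak in any of the 10 histone lists of either genotype. 2091 of the 25236 regions (8.29%) were unmarked, and the other 23145 lay at a histone peak and are called marked regions. The choice used the WT p53 and histone calls, so the WT p53 values below are a description and carry no test.

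HCT116 is an established human colorectal carcinoma cell line with intact p53. The libraries came from WT cells or from cells with MLL4 (KMT2D) knocked out (KO), and no other genotype or agent that activates p53 is named in the labels. Each genotype was profiled in 2 libraries for p53, for H3K4me3 and for H3K27ac. H3K4me1, MLL4 and MLL1 (KMT2A) were profiled once per genotype, so values for MLL4 and MLL1 have no replicate check. The labels state neither that replicates were separate cultures nor whether the KO line is 1 clone, so a p-value reflects library-to-library spread alone, and this can be purely technical.

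p53 is a transcription factor that binds DNA as a tetramer, at response elements built from a pair of decamers, and switches on genes of cell cycle arrest, apoptosis, DNA repair and metabolism after stress. H3K4me3 is found at promoters, H3K4me1 at enhancers and beside promoters, and H3K27ac at active elements of both kinds. MLL4 is the main enhancer H3K4 methyltransferase, and MLL1 methylates H3K4 at many promoters that are rich in CpG dinucleotides. A promoter with none of these marks is usually silent, and promoters rich in CpG that are silent in a cancer line often carry DNA methylation, which these data did not measure.

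Promoter windows at unmarked p53 regions, defined further on, were mostly rich in CpG dinucleotides (84.8% of 415 windows, median GC 67.7%, median CpG count 29), though less so than windows at marked p53 regions (91.7%, 71.7% and 33). Other windows had 24.0%, 52% and 6. The following 5 are the 250 bases before a transcription start, from RefSeq on GRCh38.p14, each inside an unmarked region. GALR1 and ZFP82 had the highest lower WT fold among promoter windows of protein-coding genes lying whole inside an unmarked region. AMPH shared the next value with CCDC178, CHFR, CNTN4, ELMO1 and SYT14. Among ZNF genes with a promoter window whole inside an unmarked region, ZNF470 and ZNF135 were the highest, ZNF135 in a tie with ZNF140. Each is written 5' to 3' on the gene's strand, and the capitals mark CpG dinucleotides.
GALR1: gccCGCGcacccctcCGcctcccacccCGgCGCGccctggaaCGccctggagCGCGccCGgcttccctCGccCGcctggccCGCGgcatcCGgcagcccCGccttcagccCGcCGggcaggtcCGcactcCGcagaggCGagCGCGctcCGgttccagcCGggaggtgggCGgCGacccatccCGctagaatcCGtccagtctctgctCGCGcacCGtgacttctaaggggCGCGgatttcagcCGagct
ZFP82: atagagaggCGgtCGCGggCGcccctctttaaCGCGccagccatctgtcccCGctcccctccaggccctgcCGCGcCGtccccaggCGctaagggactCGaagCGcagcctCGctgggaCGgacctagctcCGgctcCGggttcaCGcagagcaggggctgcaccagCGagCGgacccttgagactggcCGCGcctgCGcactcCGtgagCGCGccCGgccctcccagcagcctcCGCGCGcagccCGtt
AMPH: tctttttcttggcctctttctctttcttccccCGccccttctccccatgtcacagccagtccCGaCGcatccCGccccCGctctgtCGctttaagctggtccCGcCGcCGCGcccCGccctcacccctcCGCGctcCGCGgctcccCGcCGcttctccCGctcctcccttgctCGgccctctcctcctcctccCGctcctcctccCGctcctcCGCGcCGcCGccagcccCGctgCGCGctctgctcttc
ZNF470: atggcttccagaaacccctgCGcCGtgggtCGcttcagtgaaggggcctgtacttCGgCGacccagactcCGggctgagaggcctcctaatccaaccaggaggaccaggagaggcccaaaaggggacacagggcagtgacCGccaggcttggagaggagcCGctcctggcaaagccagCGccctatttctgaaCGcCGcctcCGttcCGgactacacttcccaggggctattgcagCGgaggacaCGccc
ZNF135: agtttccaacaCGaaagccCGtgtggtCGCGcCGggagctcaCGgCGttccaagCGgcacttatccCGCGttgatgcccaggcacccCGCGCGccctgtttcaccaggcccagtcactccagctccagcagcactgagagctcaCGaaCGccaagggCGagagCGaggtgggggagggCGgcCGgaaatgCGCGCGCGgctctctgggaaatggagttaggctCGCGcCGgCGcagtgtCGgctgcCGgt
GALR1 encodes a receptor for the neuropeptide galanin. Its stretch is chr18:77249598-77249847 on the plus strand, with 35 CpGs and 75.6% GC. ZFP82 is a zinc finger gene, and its stretch, chr19:36418645-36418894 on the minus strand, held 31 CpGs. AMPH encodes amphiphysin, a protein of synaptic vesicle endocytosis, and its stretch, chr7:38631374-38631623 on the minus strand, held 28. ZNF470 and ZNF135 encode zinc finger proteins of the KRAB type. Their stretches are chr19:56567218-56567467 and chr19:58059032-58059281, both on the plus strand, with 15 and 29 CpGs.

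In these 5 regions p53 was called in both WT libraries, and in KO it had a peak of lower fold or none. The fold enrichment is the authors' ratio of ChIP over local background at the peak, with 1 added to both parts. At the GALR1 region it was 15.1 in WT replicate 1 and 21.8 in WT replicate 2. There was no peak in KO replicate 1, and KO replicate 2 had 4.44. The ZFP82 region had 15.1 and 23.3 in WT and no peak in KO. At AMPH the WT folds were 13.6 and 24.7 and KO replicate 2 had 4.44, and at ZNF470 they were 11.7 and 17.5, again with 4.44 in KO replicate 2. The ZNF135 region had 11.3 and 20.4 in WT and 4.44 in KO replicate 2. None of the 5 had a KO replicate 1 peak, and none had an MLL1 peak in WT. ZFP82 and AMPH carried an MLL4 peak in WT, with folds of 5.00 and 4.17.

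The unmarked regions as a set were called at moderate fold. The fold in WT replicate 1 ran from 1.77 to 60.4 with a median of 7.55, and in WT replicate 2 from 1.45 to 165 with a median of 12.7. Marked regions had higher medians in both libraries, 8.66 and 14.8. The lower of a region's WT folds was under 5 in 317 unmarked regions, 5 to 7.5 in 694, 7.5 to 10 in 666 and 10 or more in 414.

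The depth behind these folds could be recovered. Fold and −log10 p-value together fix the number of fragments piled up at a summit and the local background. The median unmarked region had 10 fragments at its summit in WT replicate 1 and 18 in WT replicate 2, against 11 and 21 for marked regions. The background expected over most of the genome was 0.324, 0.419, 0.959 and 0.575 fragments in WT replicates 1 and 2 and KO replicates 1 and 2. The lowest pileup called at that background was 4 fragments in each library except KO replicate 1, where it was 5, and a raised local background needs more. A region without a peak is therefore not one shown to lack p53. Fold also depends on background: a higher background gives a lower fold at the same pileup. At unmarked regions with a peak, the median pileup was 10 fragments in WT replicate 1 and 10 in KO replicate 1. The median folds there were 7.55 and 5.11. In WT replicate 2 and KO replicate 2 the medians were 18 and 8 fragments, with folds of 12.7 and 5.08.

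**Figure D1:**
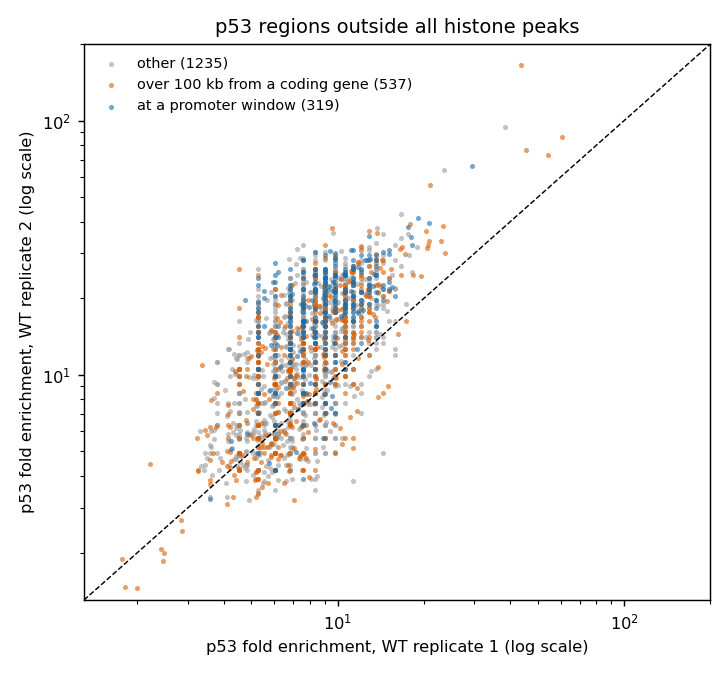
p53 fold enrichment of the 2091 unmarked regions in WT replicate 1 (x axis) and WT replicate 2 (y axis), both on log scales. Each point is a region, blue at a promoter window, orange more than 100 kb from a protein-coding gene and grey elsewhere, and the dashed line marks equal folds. Most points lie above the line, and 1 of the 10 regions of highest lower fold is blue.

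By the rule each region holds a peak of both WT libraries, which bounds the distance between their summits. The median distance between the summits of both libraries was 37 bp, with 75.9% of regions within 100 bp, against 51 bp and 69.3% for marked regions. Unmarked regions were also narrower, with a median width of 456 bp against 593 bp, and the part of width was not tested. The folds of the 2 libraries had a rank correlation of 0.609 over the 2091 unmarked regions and 0.631 over the marked ones. Replicate 2 had the higher fold in 82.2% of unmarked and 84.4% of marked regions.

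The strongest unmarked regions lay in repeated sequence on the short arms of acrocentric chromosomes and near centromeres, not at ordinary genes. 7 of the 10 highest by lower WT fold were on chromosome 21 before position 11000000, the arm that holds a cluster of ribosomal RNA genes. The highest, chr21:8400240-8400658, overlapped the 45S and 28S ribosomal RNA genes RNA45SN3 and RNA28SN3. Its p53 fold was 60.4 and 86.4 in WT with no peak in either KO library, and its MLL4 fold in WT was 50.1. The next, chr21:8260044-8260911, had 54.4 and 73.3 in WT, no KO peak, and 49.2 for MLL4. A region over RNA18SP5, an 18S ribosomal RNA pseudogene, at chr21:8252747-8253895 had 45.3 and 76.8, no KO peak, and 23.3 for MLL4. The widest gap between WT libraries in this group was at chr21:8986628-8988345, over MIR3648-2, with 43.8 and 165 and a KO replicate 2 fold of 5.71.

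The other 3 on that arm had lower folds. A region over LINC01667, a long noncoding RNA, had 23.6 and 30.2 in WT, 5.62 and 3.81 in KO, and an MLL4 peak in KO (4.41) as in WT (7.79). A second region over RNA45SN3, at chr21:8388796-8390336, had 23.3 and 38.4 in WT and no KO peak, and chr21:10405297-10405881 had 23 and 33.7 in WT and 4.60 and 5.71 in KO. Just outside the 10, a region over RNA45SN3 and RNA28SN3 at chr21:8398823-8399324 had 21 and 55.9 in WT, no KO peak, and 26.6 for MLL4.

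3 of the 10 highest lay elsewhere. A region 29.1 kb from TP53TG3F, at chr16:33491342-33492749 had WT folds of 38.3 and 94.0, KO folds of 6.80 and 17.9, and 24.9 for MLL4. A region 24.5 kb from the olfactory receptor gene OR11H1, at chr22:15553676-15554168, had 23.4 and 64.1 in WT and 11.7 and 23.5 in KO, with no MLL4 peak. At chr17:22383763-22384523 the folds were 29.4 and 66.2 in WT and 8.25 in KO replicate 2 alone. These genes belong to families or arrays with near-identical copies, and how reads that fit several copies were placed is not given in the sources used here, so the position of such a region is uncertain.

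Local background was raised at some of these places and at others was not. In WT replicate 1 it was at the genome level in 5 of the 10 strongest regions. Over all unmarked regions it exceeded 1.5 times the genome level in 12.8% of unmarked regions in WT replicate 1 and 13.9% in WT replicate 2, against 7.31% and 7.52% of marked regions. In WT replicate 1 the share was 30% of the unmarked regions with a lower WT fold under 5 and 8.94% of those at 10 and over. On chromosome 21 before position 11000000, 36 of 86 p53 regions were unmarked, with a median background of 0.676 and 0.811 fragments. Of these 36, 21 had an MLL4 peak in WT, 18 had p53 in neither KO library and 4 in both. Over all unmarked regions the shares were 21.3%, 46.1% and 9.71%, so the 2 counts of p53 in KO were near those shares. The part of the raised background in the p53 calls was not tested.

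At CpG-rich promoters, p53 in WT was called at similar shares with and without histone marks, and in KO the shares were far apart. The windows used were 33725 promoter windows of 26246 genes from RefSeq, each from 250 bases before to 50 after a start. They cover 15101 of the 19126 coding genes used and hold no window of chromosome 8, and windows of 1 gene can overlap. A p53 region at the start of a gene without a window is therefore counted as lying outside promoter windows. A window was called CpG-rich if its GC content was at least 55% and its CpG count at least 0.6 of that expected from its base composition. Among CpG-rich windows outside all histone peaks, a p53 peak was present in 475 of 780 (60.9%, Wilson 95% interval 57.4 to 64.3) in WT replicate 1 and 512 (65.6%, 62.2 to 68.9) in WT replicate 2. At CpG-rich windows with a histone peak the shares were 61.6% and 66.0% of 14222, and over all CpG-rich windows 61.5% and 66.0%. In KO the unmarked windows had a p53 peak in 74 of 780 (9.49%, 7.62 to 11.7) in replicate 1 and 279 (35.8%, 32.5 to 39.2) in replicate 2. The marked windows had 74.8% and 88.7% in KO, and all CpG-rich windows 71.4% and 85.9%.

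The class of CpG-rich unmarked windows uses no p53 call, but it was set up after the WT p53 calls at unmarked regions had been seen, so its values are a description with no test. The mean share at unmarked CpG-rich windows was 63.3% ± 3.35 (SD, n = 2) in WT and 22.6% ± 18.6 (SD, n = 2) in KO. The groups did not overlap, and they differed by -40.6 percentage points. At marked CpG-rich windows WT had 63.8% ± 3.13 and KO had 81.8% ± 9.81 (SD over 2 libraries in each case), a difference of 18.0 percentage points. Among windows with a peak, folds were compared as well. The median WT fold was 9.06 in replicate 1 at unmarked and at marked CpG-rich windows alike, and 19.7 and 17.3 in replicate 2. The median KO fold was 5.11 at unmarked and 7.15 at marked windows in replicate 1, and 5.71 and 8.39 in replicate 2.

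**Figure D2:**
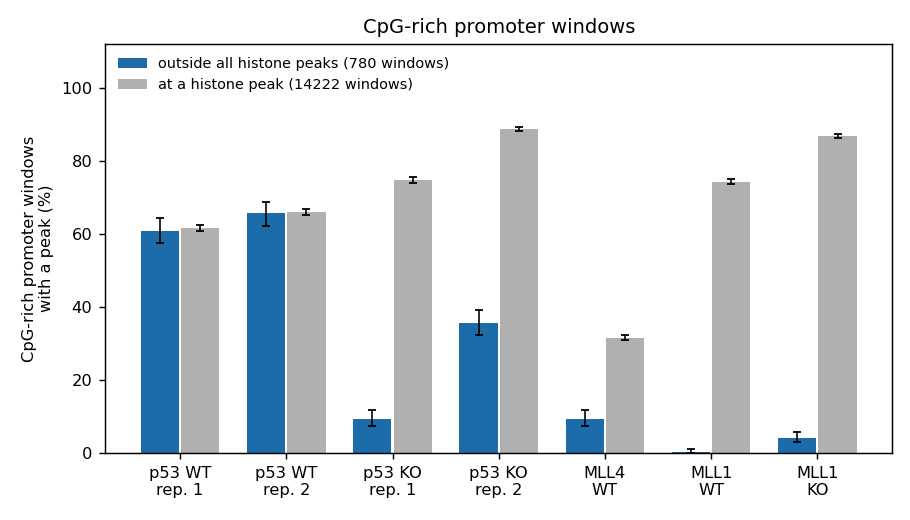
Share of CpG-rich promoter windows with a peak in each library (y axis, percent), for the 780 windows outside all histone peaks (blue) and the 14222 at a histone peak (grey). Bars are shares and whiskers Wilson 95% intervals over windows. Blue and grey bars are nearly level in both p53 WT libraries, and blue is below grey in the other 5 libraries shown.

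MLL4 and MLL1 did not show the WT p53 pattern at these windows. MLL4 had a WT peak at 74 of the 780 unmarked CpG-rich windows (9.49%) and at 31.7% of the marked ones, against 30.5% over all. MLL1, which had 1 library per genotype, had a WT peak at 4 (0.513%) and 74.3%, and a KO peak at 33 (4.23%) and 86.9%, against 70.5% and 82.6% over all CpG-rich windows.

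The share of unmarked windows with WT p53 rose with GC content. It was 0.153% and 0.254% in WT replicates 1 and 2 for the 5894 unmarked windows under 45% GC, and 20.8% and 21.3% for the 759 between 55% and 65%. It reached 66.8% and 72.0% for the 361 between 65% and 75%, and 82.5% and 90.9% for the 143 at 75% and over. Marked windows of the same GC had 19.0% and 19.8%, then 65.3% and 69.8%, then 94.0% and 98.8%. In KO the unmarked windows at 75% GC and over had 7.69% and 42.7%, while marked ones had 85.8% and 96.2%. CpG count moved with GC content, and the part of base composition in the WT calls was not tested.

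**Figure D3:**
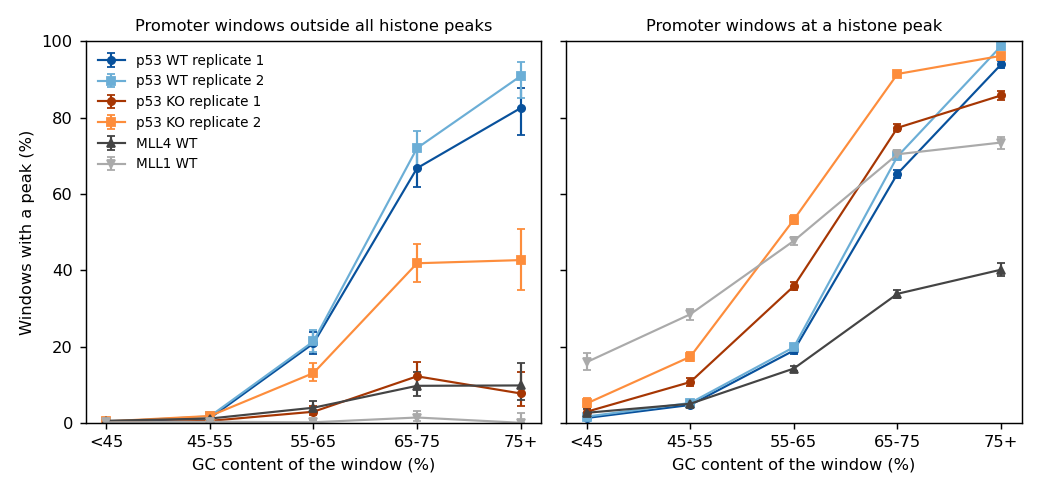
Share of promoter windows with a peak (y axis, percent) by the GC content of the window (x axis, 5 classes), outside all histone peaks (left) and at a histone peak (right). Lines are single libraries and whiskers Wilson 95% intervals. Both p53 WT lines rise to over 80% on the left as on the right, and the p53 KO lines rise that far on the right alone.

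CpG-poor windows outside all histone peaks carried few p53 peaks in any library. Of 9357 such windows, 0.930% and 1.12% had a WT peak and 0.224% and 1.13% a KO peak. All 33725 windows together held a p53 region of both WT libraries in 30.3%. The p53 decamer, the unit of the response element, was searched without a mismatch. It reads the same on both strands, so a single pass covers both, and it was counted apart from CpGs. It was present in 4.58% of the 415 windows at an unmarked p53 region, 4.09% of the 9817 at a marked one and 7.73% of the other 23493. A pair of decamers up to 13 bases apart was in 0, 1 and 9 of them. The median GC of these sets was 67.7%, 71.7% and 52%, and the part of base composition in the decamer shares was not tested. An absent motif says only that those letters are not in these windows.

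319 unmarked regions (15.3%) overlapped a promoter window, against 29.6% of all p53 regions, and they touched 361 genes. Without chromosome 8, which has no window, the shares were 16.2% of 1966 and 31.0% of 24075. To show the values, 8 genes with known roles in nerve cells were picked from the 361 after their values were seen, and how common such genes were among them was not counted. Among receptors and channels, GRIA2, a subunit of AMPA glutamate receptors, had WT folds of 12.8 and 35.2, and KCNJ6, a potassium channel, 8.16 and 19.7. TRPM3, a cation channel, had 12.1 and 26.1. Among genes of the synaptotagmin and SV2 families, SYT14 had 13.6 and 19.7, SYT10 11.3 and 23.3, and SV2B 15.5 and 22.1. Among adhesion proteins of axons, CNTN4, which encodes a contactin, had 13.6 and 21.1, and OPCML 6.80 and 19.7. KO replicate 1 had a peak at CNTN4 (5.11), SYT10 (7.47) and KCNJ6 (6.64) of these 8, and KO replicate 2 at all but SV2B, with folds from 4.44 to 6.98.

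Developmental regulators and other genes were picked in the same way. SOX1, a transcription factor of neural progenitors, had 12.1 and 21.1 in WT and 3.81 in KO replicate 2 alone. POU4F2, a factor of retinal ganglion cells, had 7.55 and 20.4 in WT and 5.08 in KO replicate 2 alone, and IRX1, a homeobox gene, 7.55 and 19.0 with 6.35. CHFR, a ubiquitin ligase of a mitotic checkpoint, had 13.6 and 19.7 in WT and 5.08 in KO replicate 2. RARB, a retinoic acid receptor, had 8.31 and 26.1 in WT and 4.88 in KO replicate 2. NTRK2, the receptor for the growth factor BDNF, had 7.55 and 24.0 in WT and no KO peak. PDGFD, a growth factor, had folds of 8.17 and 8.89 in KO beside 8.31 and 16.2 in WT. It alone of these 7 had a KO replicate 1 peak.

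ZNF genes, a large family of zinc finger proteins, were among those touched. An unmarked region overlapped a promoter window of 28 of 428 coding genes whose symbol starts with ZNF (6.54%), against 248 of 15101 coding genes with a window (1.64%). The family also had many unmarked promoters. Among genes with no marked window the counts were 27 of 100 ZNF genes (27%) and 216 of all 2398 (9.01%). Among those with a CpG-rich window as well they were 26 of 55 (47.3%) and 185 of 374 (49.5%), so within that promoter class the ZNF share was close to the share over all genes. Of 13 genes whose symbol starts with CNTN, contactins and contactin-associated proteins of neuronal cell adhesion, 5 had an unmarked region at a promoter (CNTN3, CNTN4, CNTN5, CNTNAP2 and CNTNAP5). Glutamate and GABA receptor genes had 3 of 31, potassium channel genes 3 of 70 and protocadherins 1 of 55. Among genes with an unmarked CpG-rich window these counts were 4 of 5, 3 of 4, 2 of 5 and 1 of 2, too few to set against the 49.5% over all. The families were chosen after the values were seen.

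**Figure D4:**
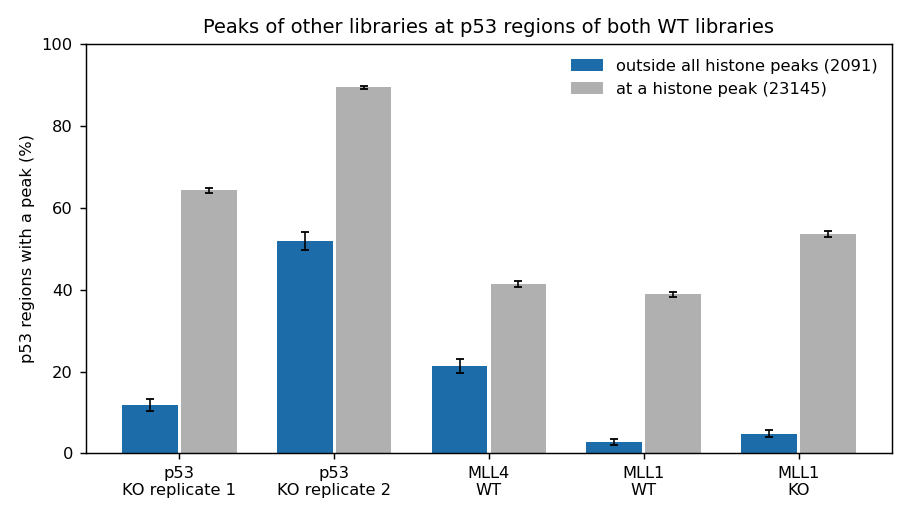
Share of the 2091 unmarked (blue) and 23145 marked (grey) p53 regions with a peak in each of 5 other libraries (y axis, percent). Bars are shares and whiskers Wilson 95% intervals over regions. The blue bar is below the grey bar in all 5 pairs, and the MLL4 KO library, not drawn, had 1.15% of unmarked and 0.143% of marked regions.

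In KO, p53 was called at far fewer unmarked than marked regions. KO replicate 1 had a peak at 246 of the 2091 (11.8%) and KO replicate 2 at 1084 (51.8%), against 59.9% and 86.3% of all p53 regions. Both KO libraries had one at 203 (9.71%, 8.51 to 11.1), against 58.1% of all regions and 62.5% of marked ones. Neither had one at 964 (46.1%, 44.0 to 48.2), against 11.9% of all and 8.82% of marked regions. The rest were called in KO replicate 2 alone (881) or KO replicate 1 alone (43). The KO libraries differed in length, with 24766 and 61530 peaks against 36046 and 31953 in WT, so the count rests on which KO library is read. Since all regions were chosen as called in WT, the KO shares are set beside those of marked regions and carry no test.

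The contrast with marked regions was present at every level of WT fold. Where the lower WT fold was 10 or more, both KO libraries had p53 at 18.4% of 414 unmarked and 78.3% of 6951 marked regions, and neither did at 24.2% and 2.0%. Where it was under 5, the shares in both KO libraries were 8.52% and 42.1%, and in neither 59.9% and 21.1%. At the 203 unmarked regions called in all 4 libraries, the WT libraries had median folds of 9.06 and 18.9 and the KO libraries 5.11 and 5.98. Both KO folds lay below both WT folds in 159 of them (78.3%), and above both in 2. The genome background was higher in both KO libraries, which lowers fold at the same pileup, and its part in this order was not tested. Among marked regions called in all 4, the WT medians were 9.06 and 17.6 and the KO medians 6.64 and 8.25, and 54.0% had both KO folds below.

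**Figure D5:**
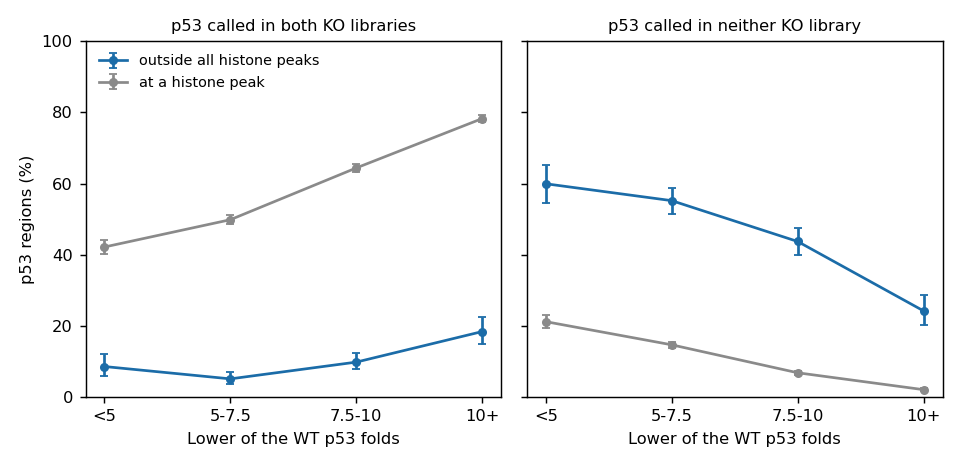
Share of p53 regions called in both KO libraries (left) and in neither (right), in percent, by the lower of the WT folds (x axis, 4 classes). Blue points are unmarked and grey points marked regions, with Wilson 95% intervals over regions. The blue and grey intervals are apart in every class on both sides.

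The share with p53 in KO was higher for unmarked regions at promoter windows than for those elsewhere. Of 319 at promoter windows, 54 (16.9%, 13.2 to 21.4) were called in both KO libraries and 92 (28.8%) in neither, and of 1647 elsewhere on chromosomes with windows 141 (8.56%, 7.30 to 10.0) and 814 (49.4%). WT folds differed as well, with medians of 9.06 and 18.5 at promoter windows and 7.55 and 11.3 elsewhere. The 5 strongest unmarked regions called in both KO libraries included the regions near TP53TG3F and OR11H1 given above. They also included the 2 regions of chromosome 21 with KO peaks named above, and a region 233 bp from POTEH, a gene of a primate family with near-identical copies, with WT folds of 20.8 and 39.4 and KO folds of 8.68 and 10.8. Among regions within 1 kb of the end of a coding gene, POTEH had the highest fold. It was followed by PREX2, an exchange factor for the GTPase RAC, with 18.9 and 31.7 in WT and 5.62 and 7.62 in KO, and by SV2B. ZNF471, another zinc finger gene, had 15.5 and 24.7 in WT and 4.08 in KO replicate 1 alone, and GALR1 was the fifth highest.

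MLL4 lay at fewer unmarked than marked regions. An MLL4 peak in WT was present at 445 of the 2091 (21.3%, 19.6 to 23.1), against 39.7% of all p53 regions and 41.4% of marked ones. With MLL4 peaks of −log10 q-value of at least 5 alone it was 138 (6.60%). The share over all p53 regions was not computed at that threshold, so 6.60% cannot be set against the 39.7%. With all MLL4 peaks, where the lower WT p53 fold was 10 or more, the shares were 30.0% of unmarked and 51.1% of marked regions. The median MLL4 fold was 4.43 at these unmarked regions and 5.00 at marked ones, and its median summit pileup was 5 fragments in both. The MLL4 KO library held 257 peaks against 55887 in WT, in the direction of the knockout. It had a peak at 24 unmarked regions (1.15%) against 0.226% of all p53 regions. All 24 lay more than 100 kb from a protein-coding gene.

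Few unmarked regions had an MLL1 peak. A WT MLL1 peak was present at 57 (2.73%, 2.11 to 3.52), against 35.9% of all p53 regions, and a KO peak at 101 (4.83%, 3.99 to 5.83), against 49.5%. With MLL1 peaks of −log10 q-value of at least 5 alone the shares were 1.29% in WT and 0.956% in KO, which turned their order. Shares over all p53 regions were not computed at that threshold. Both MLL4 and MLL1 had a WT peak at 38 regions (1.82%), against 20.0% of all. 39 of the 57 with MLL1 in WT lay more than 100 kb from a protein-coding gene. With regions of raised local background left out, 26 of 1775 (1.46%) had MLL1 in WT, and the share over all p53 regions was not computed in that setting.

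The share with p53 in KO was higher for unmarked regions with an MLL4 peak than for those without. Both KO libraries had p53 at 64 of 445 (14.4%, 11.4 to 18.0) with MLL4 and at 139 of 1646 (8.44%, 7.20 to 9.89) without, and neither KO library at 35.7% and 48.9%. The WT fold also differed, with medians of 8.31 and 14.0 with MLL4 and 7.55 and 12.1 without, and a background over 1.5 times the genome level in WT replicate 1 at 18.4% and 11.3%. Their part in the difference was not tested.

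Fewer unmarked regions than other p53 regions lay in or near protein-coding genes. 944 (45.1%, 43.0 to 47.3) lay inside a protein-coding gene, against 71.1% of all p53 regions, and 402 (19.2%) within 1 kb of the end of one, against 39.4%. 564 (27%) were more than 100 kb from any, against 6.56%. 215 (10.3%) overlapped a gene annotated as a pseudogene, against 2.56% of marked regions, and 686 (32.8%) overlapped no annotated gene, against 16.7%. The nearest histone peak was a median of 16.3 kb away, with 352 regions within 1 kb and 509 beyond 100 kb. By chromosome, the unmarked share was highest on 21 (19%), 18 (17.1%) and 13 (14.4%) and lowest on 17 (3.0%).

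Of the unmarked regions, 3 belonged to listed p53 target genes. Each region was assigned to the nearest protein-coding gene within 100 kb. Of 78 symbols of p53 target genes listed by role, 75 were found. Those not found include PIRH2 and WIP1, second names of the listed RCHY1 and PPM1D. A p53 region was present at 54 of the genes, and 3 of their 96 regions (3.13%) were unmarked, against 8.29% over all. By role, 2 of 10 regions of DNA repair and nucleotide supply genes were unmarked and 1 of 26 of apoptosis genes. None was unmarked of 15 of cell cycle arrest genes, 28 of metabolism, autophagy and secretion genes and 17 of negative feedback genes, counts too small to set apart from the share over all. FANCC, a Fanconi anaemia DNA repair gene, had an intragenic region at chr9:95292214-95292658 with WT folds of 9.89 and 19.2. This region also overlapped the pseudogene ATMINP1, and its local background was 0.517 and 0.666 fragments in WT replicates 1 and 2. REV3L, the catalytic subunit of a translesion polymerase, had one at chr6:111429641-111429892 with 5.82 and 6.92. It overlapped the pseudogene BRD7P4 as well, with a local background of 1.24 and 1.60 fragments, against genome levels of 0.324 and 0.419. Reads that fit both a pseudogene and its parent gene may be misplaced, so the position of these regions is uncertain. APAF1, the core of the apoptosome, had one at chr12:98655363-98655576 with 3.58 and 3.30, each from 4 fragments. None of the 3 had a p53 peak in KO or an MLL4 or MLL1 peak in WT.

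Lists of genes from other lineages gave a wide spread. For 15 neuronal genes, 26 of 58 regions (44.8%) were unmarked, at 10 of the genes, against 8.29% of all p53 regions. CNTNAP2, a neuronal adhesion gene, had a region at chr7:146115898-146116578 with WT folds of 9.06 and 15.5, and RBFOX1, a neuronal splicing factor, one at chr16:6018708-6019927 with 7.55 and 19.7. Several genes of this list are very long and held several regions, so regions of a gene are not independent. These lists and the p53 target lists were chosen with earlier results of these data known. No share was computed for other long genes or for other genes without marks, so the neuronal share is a description with no test. For muscle and mesenchyme genes 3 of 19 regions were unmarked, among them RYR2, a calcium release channel, with 9.06 and 21.1. None of the 11 regions of blood genes and none of the 32 of colon epithelium genes was unmarked. The counts for muscle and mesenchyme, blood and colon epithelium genes were too small to set apart from the 8.29% over all. As a check of the cell type, H3K4me3 was called in both WT libraries at 5 of 5 colon epithelium, 0 of 4 blood and 1 of 4 fibroblast marker genes.

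Values just inside and outside the rule are given for a few regions, too few to compare the sides. Among the unmarked regions closest to a histone peak, chr20:30316652-30317229 touched one without overlap and had WT folds of 9.82 and 9.86. A region at KDR, a receptor for the growth factor VEGF, was 4 bp away and had 6.80 and 12.0. The 3 marked regions with the least overlap, at TDRD9, at LOC124902417 and near GYG1, shared 1, 4 and 7 bases with a histone peak. Their WT folds were 9.06 and 23.3, 8.31 and 18.3, and 9.06 and 11.3.

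Over whole lists, the share of p53 peaks outside all histone peaks was 11.1% in WT replicate 1, 13.6% in WT replicate 2, 3.08% in KO replicate 1 and 12.9% in KO replicate 2. WT averaged 12.3% ± 1.72 and KO 7.98% ± 6.93 (SD over 2 libraries each). The groups differed by -4.37 percentage points with a two-sided exact permutation p of 0.667, less than the spread between the KO libraries, and KO replicate 2 lay between the WT values. Without KO replicate 1 the difference was 0.533 percentage points.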

How the data were processed

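ChIP-seq peak lists of 18 libraries (WT and MLL4 KO HCT116) were used as deposited; the 2 inputs were not analysed here. Peaks were called with MACS2 2.1.1 on hg38, per the submitters' processing notes, separately for each library with the input of the same genotype as control, per the peak names in the files. The sources used here do not name the aligner, the treatment of reads that fit several places or the number of reads. For each peak the authors deposited a fold over background (a ratio), a −log10 p-value, a −log10 q-value and a score.

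Overlaps (1 bp), shares with Wilson 95% intervals and exact permutation tests were computed with Python 3.11.15, pandas 2.3.3 and scipy 1.17.1. Intervals cover counting error over regions, and neighbouring regions are not independent. Summit pileups were solved from fold and p-value with a tolerance of 0.01 (over 97% of 2000 peaks checked per list), after a test on simulated data. Genes, promoter windows and sequences are from RefSeq GRCh38.p14, which shares coordinates with hg38; 19126 coding genes were used. The planned search for response elements was run in promoter windows alone. Genes named were the 10 unmarked regions of highest lower WT fold, the 5 highest called in both KO libraries, in neither, with MLL4, with MLL1 and within 1 kb of a coding gene end, those of the p53 target lists, and those nearest the boundary; others are said to be chosen afterwards. One region named by this rule is not reported here. Members and lists were chosen with earlier results of these data known. Alternatives tried were other thresholds, histone lists, distances, list lengths and leaving out libraries.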

Additional observations from a re-analysis of the deposited data

Results flagged for a closer look

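On chromosome X, which entered no comparison, 354 p53 regions were called in both WT libraries, and 116 of them (32.8%, 28.1 to 37.8) lay outside all histone peaks. This result is listed because its data lie outside the autosomes described above, where the share was 8.29%. The difference was not tested.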

How the results depend on the processing

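The number of unmarked regions was 2091. It became 4116 when histone peaks of −log10 q-value of at least 5 alone counted, since fewer peaks could mark a region, and 4012 to 4332 with 1 WT p53 library left out, since a call in 1 library then sufficed. With p53 peaks of −log10 q-value of at least 5, p53 was in both KO libraries at 3.91% and in neither at 71.8% of unmarked regions, and with lists of equal length (24766 peaks) at 7.13% and 71.1%. MLL4 and MLL1 peaks of −log10 q-value of at least 5 gave 6.60% (MLL4, WT), 1.29% (MLL1, WT) and 0.956% (MLL1, KO). Counting MLL4 by its summit gave 18.4%. With local background at most 1.5 times the genome level, a setting added after seeing the data, MLL1 in WT was 1.46%. Apart from the changes explained by construction, the cause was not tested.

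Leaving out p53 libraries in turn gave 15.2% to 16.3% for MLL4 in WT, 1.99% to 2.62% for MLL1 in WT, 3.34% to 3.53% for MLL1 in KO and 42.2% to 42.9% inside coding genes. For p53 in both KO libraries the range was 5.33% to 51.8%, the highest without KO replicate 1, and for neither 48.2% to 88.2%, the highest without KO replicate 2. The difference between genotypes in the share of lists outside histone peaks ranged from -9.27 to 0.533 percentage points and turned sign without KO replicate 1. At unmarked CpG-rich promoter windows the difference ranged from -53.8 to -27.5 and stayed negative in the other settings tried (p53 threshold, list length, WT histone lists, 1 kb distance, GC of at least 65%), all added after seeing the data.

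Replicate numbers were not shown to pair the libraries: over 14670 regions called in all 4 libraries, same-numbered deviations had a correlation of 0.0210. With a replicate block the list difference was -4.37 and the window difference -40.6 percentage points, and the list difference had an exact sign-flip p of 0.5, the smallest that 2 pairs allow. Depth limits all calls: a p53 peak needed 4 or 5 fragments, so weaker binding in KO was not detectable.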

Other observations

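The same rule was applied to the KO libraries. Of 20396 p53 regions called in both KO libraries, 313 (1.53%) lay outside all histone peaks. Of these 313, 206 were called in both WT libraries, 48 in 1 and 59 in neither. The share rests on KO replicate 1, since 3.08% of that library's peaks were unmarked and 12.9% of those of KO replicate 2.

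MLL4 peaks of WT lay outside all histone peaks more often than the p53 peaks of either WT library did. Of 55887 MLL4 peaks, 23764 (42.5%, 42.1 to 42.9) were unmarked, against 11.1% and 13.6% of p53 peaks in WT replicates 1 and 2. Of the unmarked MLL4 peaks, 560 (2.36%) overlapped a p53 region of both WT libraries, against 33.1% of the 32123 marked MLL4 peaks.

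Chromosome 19 held 152 unmarked regions of 2109 p53 regions (7.21%, against 8.29% over chromosomes 1 to 22). Of the 152, 96 had p53 in neither KO library and 5 in both, where the shares over all unmarked regions were 46.1% and 9.71%.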
